A study of Homo sapiens with 3 samples.

Results

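The enzymes of glycolysis and of the pentose phosphate pathway were followed as 31 genes chosen by symbol, out of 17329 gene rows, in Jurkat cells, an established human T-lineage acute lymphoblastic leukaemia line. Of the 31 genes, 30 were found under the listed symbol and 1, TIGAR, under its older symbol C12orf5, a synonym in RefSeq. All cultures were grown for 48 hours in medium with fetal bovine serum. The oxamate+lactate culture received sodium oxamate at 50 mM together with L-sodium lactate at 10 mM, the oxamate culture received sodium oxamate at 50 mM alone, and the control culture had standard medium. The question behind the series is how lactylation of lysine 18 on histone H3 bears on transcription, and neither lactate nor the mark was measured here. With a single polyadenylated RNA library per condition, differences between libraries have no replicate check and carry no test, standard error or p-value.

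Glycolysis splits glucose into pyruvate in the cytosol and yields ATP and NADH, and lactate dehydrogenase, the enzyme that oxamate inhibits, turns pyruvate into lactate and returns NAD+ to the GAPDH step. The pentose phosphate pathway branches off at glucose 6-phosphate. Its oxidative arm makes NADPH and its non-oxidative arm exchanges sugars between ribose 5-phosphate and glycolysis. Leukaemic T cells, like other fast-growing cells, are known for a high rate of glycolysis.

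The values are normalized counts, whole numbers that the authors had normalized by an unstated method, and the depth in reads is unknown. A ratio is given as log2 of (value + 1) over (value + 1). Members were counted as higher when at least 25% higher (a log2 ratio of 0.32) and as lower when at least 20% lower (-0.32), and again at 1.5-fold. The values summed over genes to 8171633 in oxamate+lactate, 8821115 in oxamate and 8220199 in control. Over the 12292 genes with a mean value of at least 50 the median ratio was 0.08 for oxamate against control, -0.09 for oxamate+lactate against oxamate and -0.01 for oxamate+lactate against control. The 18 ERCC spike-in RNAs with a mean of at least 100, which measure handling after extraction and not the spread between cultures, ranged between -0.24 and 0.29, -0.39 and 0.10, and -0.39 and 0.39 in the same order of comparisons. Of 10 T-lineage markers, 9 were analysed here and 8 had a mean of at least 50. For oxamate against control 3 of the 8 were at least 25% higher (37.5%, against 23.1% of all genes). None was at least 20% lower (11.9% of all genes). CD3E had 4011, 4128 and 4488 and LCK 3861, 4368 and 3316 in oxamate+lactate, oxamate and control. CD28, with a mean under 50, had 20, 66 and 3. Of 18 markers of B, myeloid, fibroblast and epithelial cells, 6 were analysed here, and they summed to 335, 367 and 386. In a bulk library, fewer cells with a transcript and less of it per cell cannot be told apart.

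As a group the enzymes stayed close to the median of all genes in the oxamate library. All 31 had a mean of at least 50. For oxamate against control 2 of 31, HK2 and PFKFB3, were at least 25% higher (6.45%, against 23.1% of all genes), and 4 of 31, GPD2, ALDOC, GAPDH and H6PD, were at least 20% lower (12.9%, against 11.9% of all genes). At 1.5-fold, 0 were higher (7.40% of all genes) and 1, GPD2, was lower (3.90% of all genes). The median ratio of the 31 was 0.08, equal to that of all genes at 2 decimals, and the ratios ran from -0.67 to 0.51 with an SD over members of 0.28, against 0.38 over all genes.

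The enzymes, like all genes, differed less between oxamate+lactate and oxamate than between oxamate and control. For oxamate+lactate against oxamate 0 of 31 were at least 25% higher (2.38% of all genes) and 2 of 31, PGD and PFKM, were lower (6.45%, against 8.88% of all genes). None reached 1.5-fold in either direction, which 0.244% of all genes did upward and 0.854% downward. PGD (-0.36) and PFKM (-0.35) lay within the range of single ERCC RNAs in that comparison, whose lowest ratio was -0.39. The median was -0.10 for the members and -0.09 for all genes, with an SD of 0.13 over members and 0.19 over all genes. For oxamate+lactate against control, which shares its control library with the first comparison, 2 of 31, PFKFB3 and BPGM, were higher (6.45%, against 11.3% of all genes). In that comparison 6 of 31 were lower (19.4%, against 12.4% of all genes), namely GPD2, PFKM, GAPDH, PFKL, PFKFB4 and H6PD, with a median of -0.08 for the members and -0.01 for all genes. Of these, PFKFB4 (-0.36) and H6PD (-0.33) lay within the range of single ERCC RNAs in that comparison, whose lowest ratio was -0.39. None of the 31 reached 1.5-fold there, against 2.91% of all genes upward and 3.03% downward.

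**Figure D1:**
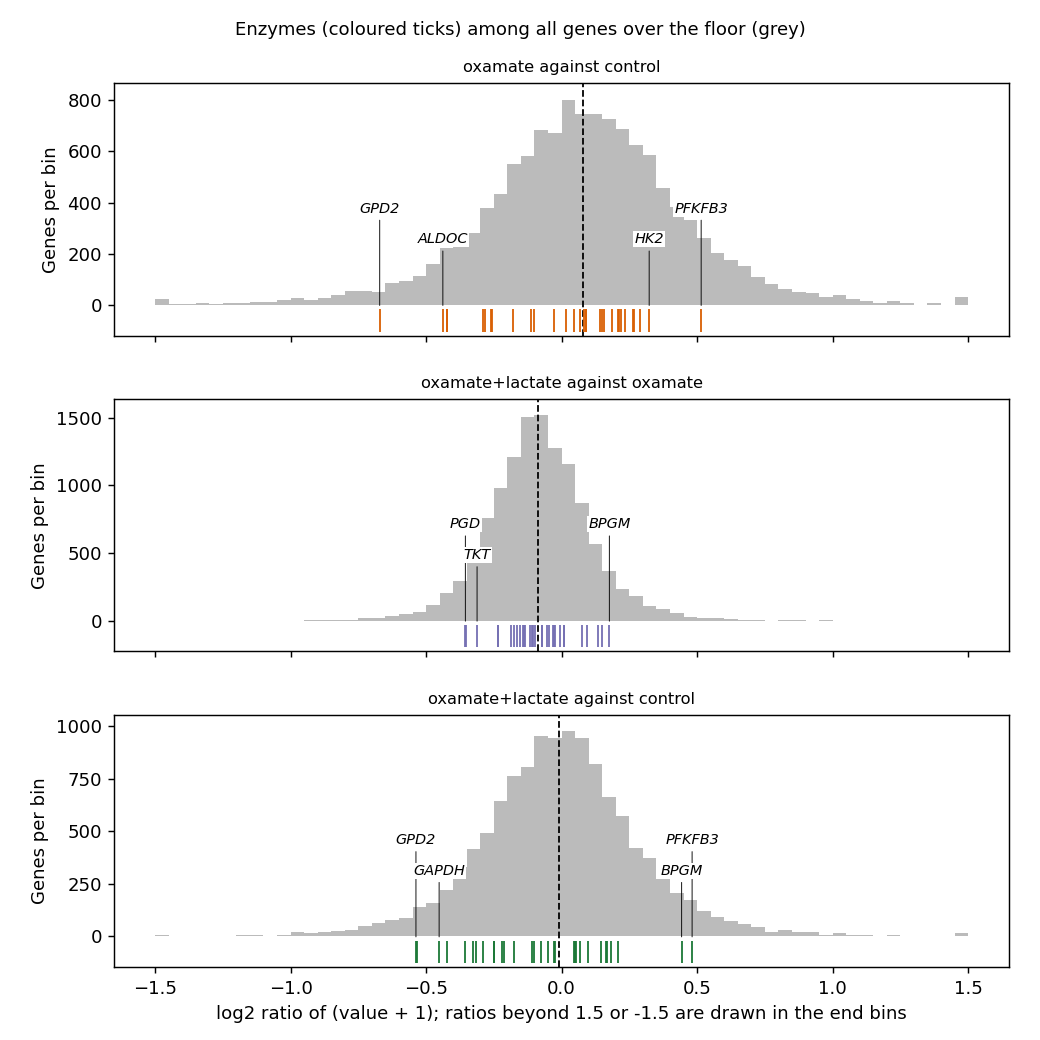
Histograms of the log2 ratios of 12292 genes (grey) in the 3 comparisons, with the 31 enzymes as coloured ticks and the median of all genes as a dashed line. The ticks lie inside the range of all genes, with GPD2 at -0.67 (2.78% of all genes lower) and PFKFB3 at 0.51 (9.96% higher) at the 2 ends for oxamate against control.

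Glucose enters the pathway through the hexokinases, which phosphorylate it on carbon 6. HK2, the inducible isoenzyme, had 826 normalized counts in oxamate+lactate, 911 in oxamate and 728 in control. HK1, the isoenzyme of most tissues, had 692, 688 and 618 in the same libraries. Both were lowest in control, and the log2 ratio of oxamate against control was 0.32 for HK2 and 0.15 for HK1. HK2 lay at the threshold of 25% and under it with a pseudocount of 10. Per kb of transcript HK1 was the higher of the pair, at 192, 191 and 171 against 143, 158 and 126 for HK2, but with all annotated exons as the length HK2 made up 51.0% of the pair in oxamate, against 45.3% by transcript length. GPI, the isomerase that makes fructose 6-phosphate and stands where both pathways meet, had 2264, 2380 and 2555, highest in control, while the order of the treated pair changed with the scaling of the libraries.

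Phosphofructokinase, the committed step of glycolysis, showed a difference between its isoenzymes. PFKL, the liver-type subunit, had 1213 normalized counts in oxamate+lactate, 1337 in oxamate and 1628 in control. PFKM, the muscle-type subunit, had 93, 119 and 135, and PFKP, the platelet-type subunit, had 2193, 2478 and 2234. PFKL and PFKM were thus lowest in oxamate+lactate and highest in control, while PFKP was highest in oxamate. The ratio for oxamate+lactate against control was -0.42 for PFKL and -0.53 for PFKM, and -0.03, of either sign depending on the scaling, for PFKP. PFKP held 65.0% of the family per kb in oxamate+lactate and 65.3% in oxamate, against 58.3% in control. A ratio of 2 genes within a library is not affected by how that library was scaled, and PFKP to PFKL was 1.81 in oxamate+lactate, 1.85 in oxamate and 1.37 in control. PFKM is a low gene here, with 2.27%, 2.58% and 2.90% of the family per kb. It shares exon sequence with SENP1 on the opposite strand, at most 188 bases in 1 stretch, against a transcript of 3224 bases. In a library that does not mark strand, reads from the shared bases cannot be told from those of SENP1.

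A larger shift within a family was that of the bifunctional enzymes that set fructose 2,6-bisphosphate, the activator of phosphofructokinase. PFKFB3, whose kinase activity far exceeds its phosphatase activity, had 725 normalized counts in oxamate+lactate, 742 in oxamate and 519 in control. PFKFB2, first known from heart, had 338, 344 and 421, and PFKFB4, first known from testis, had 113, 121 and 145. PFKFB3 was higher in both treated libraries than in control and the other two were lower in both. The ratios for oxamate against control were 0.51 for PFKFB3, -0.29 for PFKFB2 and -0.26 for PFKFB4, and those for oxamate+lactate against control were 0.48, -0.32 (just short of the threshold) and -0.36. Of all genes, 9.96% had a higher ratio than PFKFB3 in the first comparison and 4.94% in the second. Between the treated libraries its ratio was -0.03, of either sign depending on the scaling. PFKFB3 made up 67.1% of the 3 genes per kb in oxamate+lactate and 66.8% in oxamate, against 53.7% in control, and its value was 6.42, 6.13 and 3.58 times that of PFKFB4. TIGAR, a p53-induced phosphatase that removes fructose 2,6-bisphosphate, had 156, 148 and 141, a narrow range. TIGAR also shares exon sequence with a second annotated coding gene, AC008012.1.

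**Figure D2:**
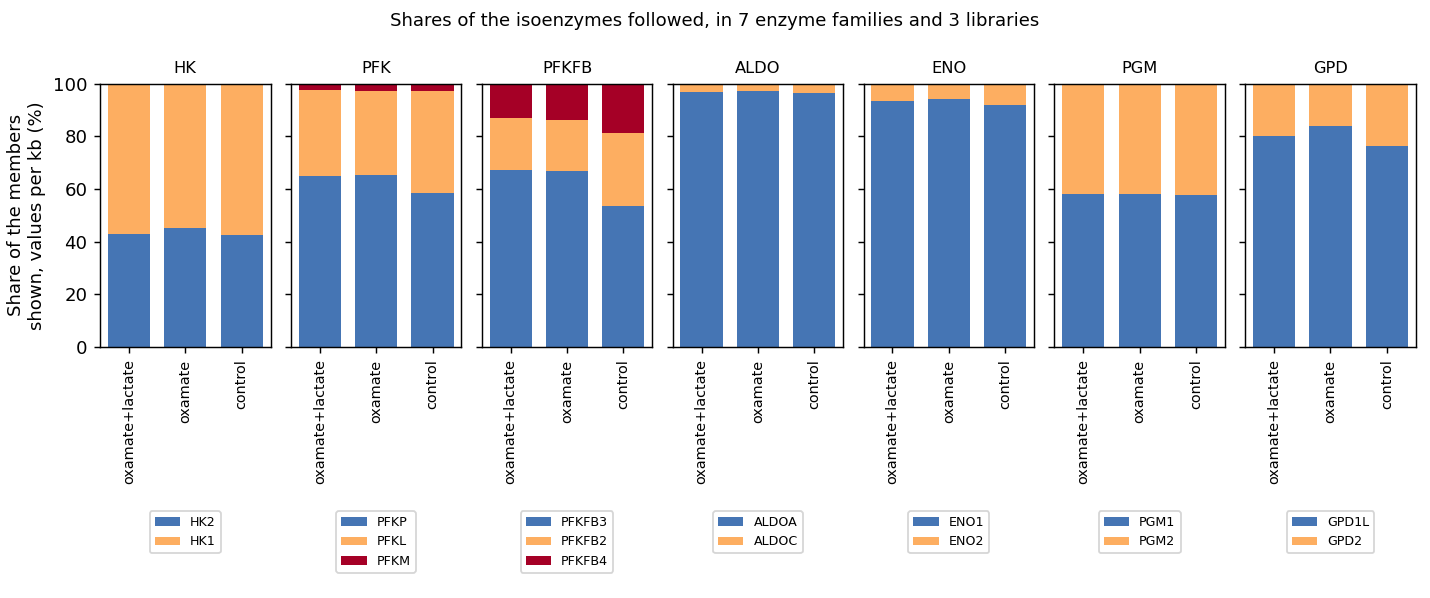
Stacked bars give each isoenzyme's share of the members of its family followed here (%, from values per kb of transcript; the ENO bars hold ENO1 and ENO2 and not ENO3) in oxamate+lactate, oxamate and control, 1 library each. PFKFB3 holds 67.1%, 66.8% and 53.7% of its family and PFKP 65.0%, 65.3% and 58.3%, while PGM1 holds 58.3%, 58.1% and 57.7%.

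Aldolase splits fructose 1,6-bisphosphate and triose phosphate isomerase interconverts its products. ALDOA, the main aldolase, had 4938 normalized counts in oxamate+lactate, 5423 in oxamate and 5869 in control. ALDOC, the brain-type aldolase, had 205, 185 and 251, with a ratio of -0.44 for oxamate against control and 0.15 for oxamate+lactate against oxamate. ALDOC was lowest in oxamate, whereas ALDOA was lowest in oxamate+lactate, and ALDOC was at most 3.34% of the pair per kb. TPI1 went the other way, with 2539, 2550 and 2199 and a ratio of 0.21 for both treated libraries against control.

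GAPDH, which oxidises glyceraldehyde 3-phosphate and consumes NAD+, was the most abundant member and the one with the largest difference in normalized counts. It had 22181 normalized counts in oxamate+lactate, 22640 in oxamate and 30341 in control. Both treated libraries lay below control, with ratios of -0.42 for oxamate and -0.45 for oxamate+lactate, and the ratio between them was -0.03, of either sign depending on the scaling. Of all genes, 7.68% had a lower ratio than GAPDH for oxamate against control and 5.95% for oxamate+lactate against control. GAPDH ranked 11th in oxamate+lactate, 12th in oxamate and 8th in control among all gene rows. It made up 29.7% of the summed values of the 31 members in oxamate+lactate and 27.7% in oxamate, against 35.9% in control. Of its annotated pseudogenes, GAPDHP1 had 78, 83 and 95 and GAPDHP65 had 6, 6 and 10.

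Of the enzymes that follow GAPDH, ENO2 was also below control in both treated libraries, and as deposited the other members were not. PGK1, the first ATP-making step, had 3749 normalized counts in oxamate+lactate, 4174 in oxamate and 4043 in control. PGAM1, which moves the phosphate group to carbon 2, had 2464, 2764 and 2600. ENO1, the main enolase, had 12291, 13986 and 11880, and PKM, pyruvate kinase, had 7162, 8432 and 6905. All 4 were highest in oxamate as deposited, though with equal totals PGK1 and PGAM1 were highest in control. Their ratios for oxamate against control were 0.05, 0.09, 0.24 and 0.29, and those for oxamate+lactate against oxamate were -0.15, -0.17, -0.19 and -0.24. ENO2, the neuronal enolase, had 1067, 1060 and 1268, with ratios of -0.26 for oxamate and -0.25 for oxamate+lactate against control. Within a library the value of GAPDH was 1.80 times that of ENO1 in oxamate+lactate and 1.62 times in oxamate, against 2.55 times in control. Against PKM it was 3.10, 2.69 and 4.39 times, and against PGK1 5.92, 5.42 and 7.50 times. Without GAPDH the other 30 members summed to 52622 in oxamate+lactate, 58988 in oxamate and 54285 in control, and with it to 74803, 81628 and 84626.

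**Figure D3:**
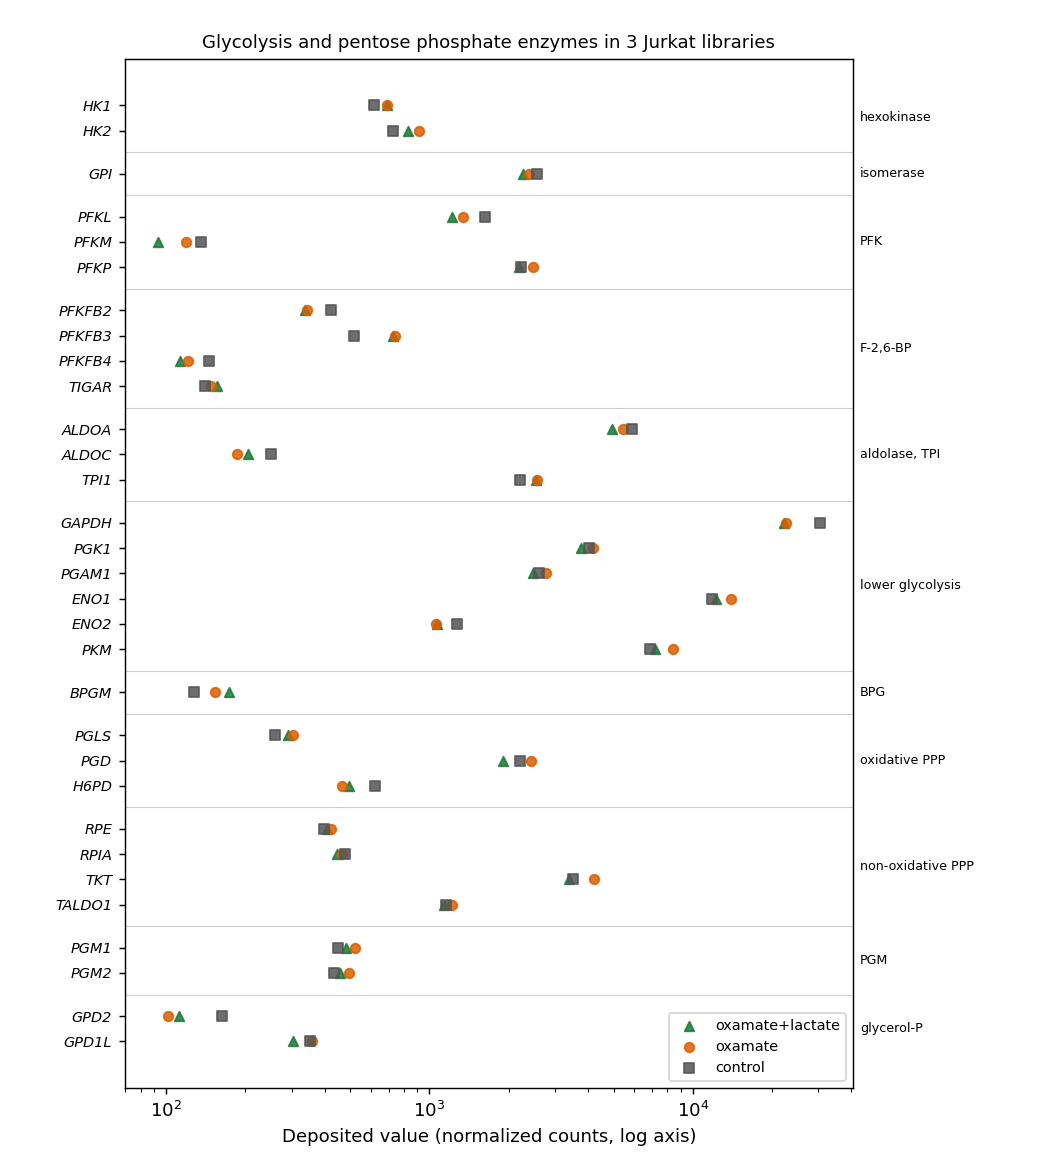
Deposited values (normalized counts, log axis) of the 31 enzymes, ordered by step, in oxamate+lactate (triangles), oxamate (circles) and control (squares), 1 library each. GAPDH (22181, 22640 and 30341) and GPD2 (112, 102 and 163) lie below control in both treated libraries, whereas PFKFB3 (725, 742 and 519) lies above it.

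BPGM, which makes 2,3-bisphosphoglycerate from the product of GAPDH, had 173 normalized counts in oxamate+lactate, 153 in oxamate and 127 in control. It was the member with the highest ratio for oxamate+lactate against oxamate, 0.18, and its ratio for oxamate+lactate against control was 0.44.

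In the oxidative arm of the pentose phosphate pathway, 6-phosphogluconate dehydrogenase, PGD, which makes NADPH, had 1902 normalized counts in oxamate+lactate, 2433 in oxamate and 2204 in control. H6PD, which carries out the first steps of the arm in the lumen of the endoplasmic reticulum, had 496, 465 and 623. PGD was highest in oxamate and lowest in oxamate+lactate, and H6PD was highest in control. The ratios for oxamate against control were 0.14 for PGD and -0.42 for H6PD, and those for oxamate+lactate against oxamate were -0.36 and 0.09. The value of PGD was 3.83 times that of H6PD in oxamate+lactate, 5.23 times in oxamate and 3.54 times in control. PGLS, the cytosolic lactonase, had 291, 302 and 259.

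In the non-oxidative arm the transketolase TKT had 3393 normalized counts in oxamate+lactate, 4212 in oxamate and 3509 in control. Its ratio was 0.26 for oxamate against control and -0.31 for oxamate+lactate against oxamate, short of the threshold both times. TALDO1, transaldolase, had 1133, 1218 and 1151, and the epimerase RPE and isomerase RPIA stayed between 396 and 476. Of these, RPE shares exon sequence with KANSL1L. TKT and PGD, with PFKM, had the 3 lowest ratios of all members for oxamate+lactate against oxamate. These lay within the range of single ERCC RNAs in that comparison, whose lowest ratio was -0.39. Both TKT and PGD were highest in oxamate, as were PGLS, RPE and TALDO1 as deposited.

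At the sides of the pathway, the phosphoglucomutases PGM1, which links glycolysis to glycogen, and PGM2, which acts on pentose phosphates, kept a near constant ratio. PGM1 had 482 normalized counts in oxamate+lactate, 520 in oxamate and 450 in control, and PGM2 had 456, 495 and 435. The value of PGM2 was 0.946, 0.952 and 0.967 times that of PGM1. GPD2, the mitochondrial dehydrogenase of the glycerol phosphate shuttle, which carries electrons from cytosolic NADH to the respiratory chain, had the largest log2 ratio in size of the 31 for oxamate against control. It had 112, 102 and 163, with a ratio of -0.67 for oxamate against control, and 2.78% of all genes had a lower one. With lactate added the ratio against control was -0.54, and against oxamate 0.13. GPD1L, a cytosolic glycerol 3-phosphate dehydrogenase homologue, had 303, 357 and 353, lowest in oxamate+lactate.

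**Figure D4:**
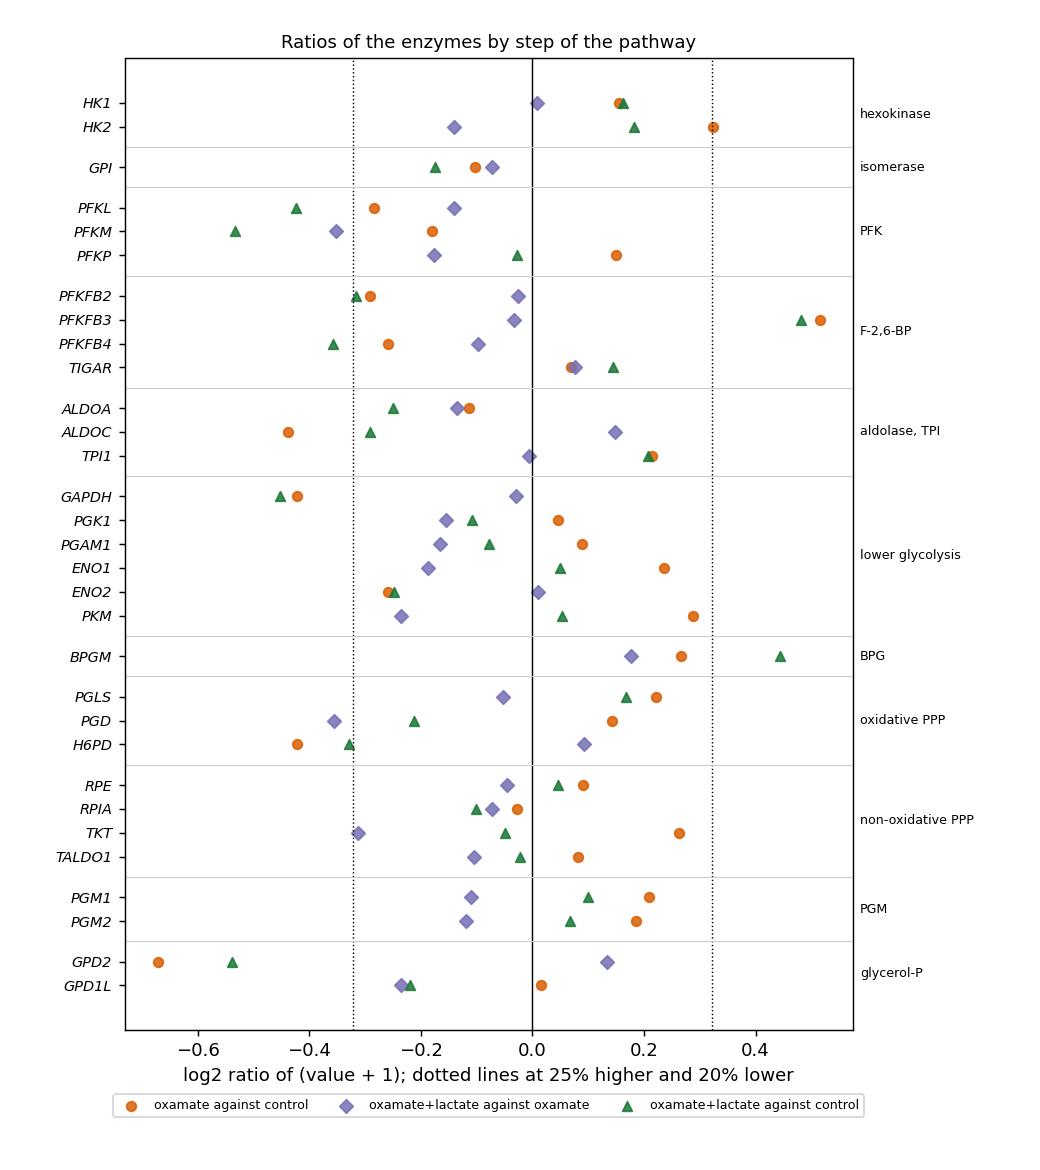
Log2 ratios of (value + 1) for the 31 enzymes by step of the pathway, for oxamate against control (circles), oxamate+lactate against oxamate (diamonds) and oxamate+lactate against control (triangles), with dotted lines at 25% higher and 20% lower. For oxamate against control, isoenzymes part in sign within the PFK, PFKFB and enolase steps, while ALDOA (-0.11) and ALDOC (-0.44) both lie below 0. The 2 aldolases part in sign only for oxamate+lactate against oxamate (-0.14 and 0.15). For oxamate against control GAPDH (-0.42) and ENO2 (-0.26) lie below 0 while PGK1 (0.05), PGAM1 (0.09), ENO1 (0.24) and PKM (0.29) lie above it.

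The promoters of the members were searched for CACGTG, the E-box read by MYC and other basic helix-loop-helix factors, and for ACGTG, the core of the hypoxia response element, on both strands. Each CACGTG also holds ACGTG on both strands. RefSeq windows of GRCh38.p14, another build than the hg19 named for the files, were matched for 30 of the 31 genes, and the 250 bases before each annotated start were used. CACGTG was present in at least 1 window of 6 of the 30 genes (20%), against 7.73% of all genes with a window, and ACGTG in 17 of 30 (56.7%), against 21.7%. The members have more windows per gene, 53 for 30 genes against 35116 for 27305 genes in all, and per window the shares were 11.3% against 6.34% for CACGTG and 37.7% against 18.5% for ACGTG. These 27305 genes were not limited to those with a mean of at least 50, as all members have, nor matched to the members in GC content of the windows. The 6 were HK2, PFKFB3, GAPDH, ALDOC, ALDOA and PGM2. A match is a description of letters and not a site in use. The 4 of these that passed a threshold for oxamate against control are shown because they hold the same motif and went both ways, with HK2 and PFKFB3 higher and GAPDH and ALDOC lower. Capitals mark CACGTG, which begins 194 and 149 bases before the start in HK2, 108 in PFKFB3, 81 in GAPDH and 240 in ALDOC. The windows lie at chr2:74834920-74835169 on the plus strand for HK2, chr10:6202682-6202931 on the plus strand for PFKFB3, chr12:6535014-6535263 on the plus strand for GAPDH and chr17:28576896-28577145 on the minus strand for ALDOC. HK2 and PFKFB3 each have 2 annotated windows, of which the one with the motif is given.
HK2: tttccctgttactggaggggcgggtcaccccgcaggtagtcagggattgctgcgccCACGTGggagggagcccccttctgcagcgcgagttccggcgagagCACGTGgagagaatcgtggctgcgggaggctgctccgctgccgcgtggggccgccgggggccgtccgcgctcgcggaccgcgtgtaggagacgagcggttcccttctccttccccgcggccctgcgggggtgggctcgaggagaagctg
PFKFB3: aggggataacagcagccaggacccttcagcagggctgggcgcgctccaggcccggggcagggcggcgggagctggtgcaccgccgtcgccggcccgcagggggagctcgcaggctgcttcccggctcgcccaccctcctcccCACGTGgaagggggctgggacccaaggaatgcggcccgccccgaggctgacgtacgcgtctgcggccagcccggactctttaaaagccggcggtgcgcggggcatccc
GAPDH: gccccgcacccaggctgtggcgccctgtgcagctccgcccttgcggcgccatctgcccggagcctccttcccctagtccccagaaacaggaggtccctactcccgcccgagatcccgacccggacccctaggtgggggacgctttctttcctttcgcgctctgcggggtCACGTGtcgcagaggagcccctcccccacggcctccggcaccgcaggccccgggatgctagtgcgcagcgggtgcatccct
ALDOC: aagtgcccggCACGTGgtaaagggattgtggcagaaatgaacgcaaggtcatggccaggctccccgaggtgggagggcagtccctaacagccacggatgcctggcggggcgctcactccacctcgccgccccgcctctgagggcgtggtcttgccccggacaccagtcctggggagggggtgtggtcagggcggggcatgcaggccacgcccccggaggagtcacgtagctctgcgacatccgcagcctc

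GPD2 and H6PD, the other members at least 20% lower for oxamate against control, had 0 matches of either motif in their windows.

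Other genes of the pathway were counted from a list of 26, of which 17 were analysed here and 9 had a mean of at least 50. For oxamate against control 2 of the 9 were at least 25% higher (23.1% of all genes) and 0 at least 20% lower (11.9%). For oxamate+lactate against oxamate 1 was higher (2.38% of all genes) and 1 lower (8.88%), and for oxamate+lactate against control 2 were higher (11.3%) and 1 lower (12.4%). Their medians were 0.16, -0.19 and 0.05. PGP, a phosphatase that clears toxic side products of glycolytic enzymes, was the only gene of the 9 at 1.5-fold in the 3 comparisons, with 635 normalized counts in oxamate+lactate, 724 in oxamate and 477 in control and a ratio of 0.60 for oxamate against control, where 7.40% of all genes were at least 1.5-fold higher. At the entry and exit of the pathway the glucose transporter SLC2A1 had 927, 995 and 762, the only 1 of 7 listed genes past a threshold in the 3 comparisons (0.38 for oxamate against control, where 23.1% of all genes were at least 25% higher). The other glucose transporter listed, SLC2A3, had 143, 124 and 132. The monocarboxylate transporters SLC16A1 and SLC16A3 had 1190, 1427 and 1180, and 116, 112 and 128, their partner BSG had 1890, 2028 and 1765, and the lactate dehydrogenase subunits LDHA and LDHB had 4648, 4952 and 4937, and 7000, 7363 and 7383.

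Across all genes, the ratios moved with the GC content of the transcript, with a Spearman correlation of 0.31 over 10737 genes for oxamate against control, where the points share the same libraries. It was -0.24 for oxamate+lactate against oxamate and 0.24 for oxamate+lactate against control. Over the 31 members the correlations were 0.04, -0.17 and -0.09 in the same order of comparisons. The members' GC content ran from 38.7% to 66.0%, with a median of 54.2%, against 48.9% for all genes. With the trend on GC content and length removed, the ratio for oxamate against control was -0.60 for GPD2, -0.59 for H6PD, -0.56 for GAPDH, -0.54 for ALDOC, 0.38 for PFKFB3 and 0.26 for HK2. In GENCODE 29, 14 of the 31 members share exon bases with another annotated gene, 7 of them with a coding one. Of the members past a threshold, GAPDH and ALDOC overlap antisense RNAs on the opposite strand, and PFKM overlaps SENP1. A library without strand information cannot tell reads from the shared bases apart.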

How the data were processed

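Per the labels' protocols, TRIzol extracts of equal cell numbers were spiked with ERCC RNAs, and libraries from poly(A)-selected RNA were made with NEBNext Ultra, which keeps no strand information. The submitters' processing notes name the tools HTSeq 0.11.2, STAR 2.7.1a and FastQC 0.11.9 and the build hg19, without saying what each did. The authors deposited 1 table of normalized counts, with 17365 rows, of which 36 are ERCC. Its values are whole numbers, treated as a score normalized and rounded by the authors and not as raw counts. How they were normalized is not stated, the depth is unknown, and no count model was fitted or counting interval given.

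Samples were grouped by their treatment label. For each of 3 pairs of libraries, log2((value + 1)/(value + 1)) was computed with pandas 2.3.3 and numpy 2.4.6 in Python 3.11.15, for genes with a mean of at least 50, and the script was tested on simulated data. Members at least 25% higher or 20% lower in a comparison, and all isoenzymes, were named. The members and lists were chosen with earlier results of these data known. Length and GC content come from 1 principal transcript per gene in GENCODE 29, which is on another build, and promoters from RefSeq (GRCh38.p14). Alternatives were a pseudocount of 10, floors of 10 and 200, and scaling to equal totals, equal ERCC sums or the median of all genes. Removal of the GC and length trend was added after seeing the data.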

Additional observations from a re-analysis of the deposited data

How the results depend on the processing

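With 1 library per condition nothing here separates treatment from culture-to-culture variation. Scaling to equal totals moved the median ratio of all genes for oxamate against control from 0.08 to -0.02, and that of the 31 members from 0.08 to -0.02. For oxamate+lactate against oxamate the median of the members was -0.10 as deposited and 0.01 with equal totals. No median moved by as much as 1 SD of the ERCC ratios. Among the deposited values and the 3 scalings, 6 members changed sign for oxamate against control, 11 for oxamate+lactate against oxamate (GAPDH and PFKFB3 among them) and 3 for oxamate+lactate against control. Each scaling moved all ratios of a comparison by about the same amount, which was smaller than the threshold. A member at least 25% higher or 20% lower in a comparison therefore could not change sign in it.

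For oxamate against control, 1 member (PFKFB3) was at least 25% higher in place of 2 with a pseudocount of 10, with equal totals and with ratios centred on the median of all genes, where HK2 dropped out. In place of 4, 8 members were at least 20% lower with equal totals and with centred ratios, which added PFKL, PFKFB2, PFKFB4 and ENO2, and 7 once the trend on GC content and length was removed. The share of all genes past the threshold was not counted under the alternative settings. The counts in this paragraph therefore have no share of all genes to be set against. For oxamate+lactate against oxamate, 0 of the 2 lower members stayed past the threshold with equal totals, equal ERCC sums or centred ratios, and 1 (PGD) with a floor of 200, which leaves 26 members. For oxamate+lactate against control, a floor of 200 left 1 higher member in place of 2 and 3 lower members in place of 6. In that comparison H6PD was no longer 20% lower with equal totals or centred ratios (5 lower members), nor were H6PD (-0.26) and PFKFB4 (-0.29) with equal ERCC sums (4 lower members). The log2 ratio of PFKM to PFKL in oxamate+lactate was -3.69 with a pseudocount of 1 and -3.57 with one of 10. In all, 71 of 84 recomputed values stayed within 1.5 times (counts) or 1 SD of the ERCC ratios. The 84 pool counts with medians and isoenzyme ratios, and apart from PFKM to PFKL all that moved were counts of members. A count could also stay while its genes changed. With the trend on GC content and length removed, BPGM took the place of HK2 among the members higher for oxamate against control. No paired analysis was possible because each condition has 1 library.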

Other observations

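ENO3, the muscle-type enolase, was chosen after its values were seen. It had 3210 normalized counts in oxamate+lactate, 3881 in oxamate and 3212 in control, above ENO2 (1067, 1060 and 1268) in every library, with a ratio of 0.27 for oxamate against control and -0.27 for oxamate+lactate against oxamate. Exon bases shared with other genes were listed for the members only. Without strand information, how much of the ENO3 value comes from a neighbouring gene is therefore not known here.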
